A study of Sus scrofa with 6 samples.

Results

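The first week of life of the pig ileum was followed between day 3 and day 7, from 1 library of single-cell RNA at each age. Droplet barcodes with at least 1000 unique molecular identifiers (UMIs, counted molecules) and at least 500 genes were read as cells, which gave 11361 cells on day 3 and 12634 on day 7, or 23995 of the 76099 cells in all 6 libraries (days 0, 1, 3, 7, 14 and 21). Both libraries came from male Large White piglets left with their sows on maternal milk, with no other treatment, and 5 piglets were taken per age. Mucosa was scraped from the ileum and dissociated into single cells, so the layer beneath the mucosa is represented only as far as scraping reached it. Age, litter mates, dissociation and library cannot be told apart with 1 library per age, and no test between the ages was possible. Differences are therefore given as ratios of levels (UMIs of a gene per 10000 UMIs of all genes, summed over the cells compared), with 95% intervals that cover counting error only.

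The newborn ileum is lined by absorptive enterocytes that take up milk proteins, lipids and bile acids, by mucus-secreting goblet cells and by hormone-secreting enteroendocrine cells, all renewed from crypts. Beneath the lining lie the Peyer's patches, lymphoid follicles that in the pig form a long continuous strip in the ileum and hold mostly B cells. In germinal centres of such follicles B cells divide and mutate their antibody genes, while T cells pass from a naive, recirculating state to effector and regulatory states once they meet antigen.

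The day 3 library held 80068913 UMIs and the day 7 library 81587648, with a median of 4029 and 3856.5 UMIs and 1363 and 1457 genes per cell. The share of UMIs from the mitochondrial genome was 6.11% on day 3 and 5.70% on day 7. Barcodes with 100 UMIs or fewer, taken here as free RNA, had 1927091 and 3503864 UMIs in all, and the levels of some genes in them are given for comparison. The libraries had 40 cell barcodes in common, against 31 to 68 in the 15 pairs of libraries of the series.

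Cells were assigned to 3 lineages by the UMIs of a few defining genes. B cells had at least 2 UMIs of MS4A1 (CD20), PAX5 and POU2AF1 together and none of CD3E or CD3G. T cells had at least 2 of CD3E and CD3G (subunits of the T cell receptor complex) and none of MS4A1 or PAX5. Epithelial cells had at least 5 of EPCAM, KRT8 and VIL1 (an adhesion molecule, a keratin and a microvillus protein) and at most 1 of PTPRC (CD45). The B lineage made up 7936 cells on day 3 (69.9%, exact binomial interval 69.0 to 70.7) and 10154 on day 7 (80.4%, 79.7 to 81.1). The T lineage made up 349 cells (3.07%, 2.76 to 3.41) and 432 (3.42%, 3.11 to 3.75). The epithelial lineage made up 90 cells (0.792%, 0.637 to 0.973) and 192 (1.52%, 1.31 to 1.75). None of the 3 gates held 2989 cells on day 3 and 1869 on day 7, and 3 and 13 cells passed more than 1 gate. Across the 6 ages the B share was 21.0, 30.2, 69.9, 80.4, 91.1 and 93.0%, with the widest step between days 1 and 3, and the epithelial share was 25.3, 8.72, 0.792, 1.52, 0.175 and 0.00724%. The gates read counts that grow with depth. Thinned to 1000 UMIs per cell before gating, the B share was 19.6 points higher on day 7 than on day 3, against 10.5 points without thinning, and when cells were instead the barcodes with the most UMIs, up to the number the study profiled and with at least 200 genes, the B difference shrank to 0.731 points and the T difference turned from 0.347 to -0.227 points.

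Over all cells, 13531 genes had at least 50 UMIs in both libraries together. Of these, 786 (5.81%) were at least 2-fold higher on day 7 and 1633 (12.1%) at least 2-fold lower, and the median ratio of day 7 over day 3 was 1.033. Most of these genes were rare: 37 of the higher and 28 of the lower ones had a level of at least 1 per 10000 on the day of the higher value. PRAP1, a secreted protein of the gut lining (chromosome 14, positions 141325965 to 141329955 of Sscrofa11.1), had a level of 0.00292 on day 3 and 1.14 on day 7, a 390-fold difference (interval 250 to 648). REG3G, a bactericidal lectin of enterocytes (chromosome 3, 64847629 to 64850365), had 0.0267 and 3.18, and APOA1, an apolipoprotein, 0.248 and 1.45. GCSAM, a germinal centre signalling protein (chromosome 13, 147623212 to 147643942), had 0.289 and 1.38. JCHAIN, which joins IgA and IgM into polymers, had 0.689 and 2.17, and MYBL1, a transcription factor of dividing germinal centre cells, 0.603 and 1.67. SPP1 (osteopontin) had 0.292 and 1.13. RRM2B, a ribonucleotide reductase subunit, GP91-PHOX, an NADPH oxidase subunit, and ZP3, a zona pellucida glycoprotein, were 2.92-, 2.65- and 2.50-fold higher. NTS, which encodes the hormone neurotensin, had 0.710 and 2.82, but 62.3% of its day 7 UMIs lay in 3 cells.

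Most of the named genes that were lower on day 7 had most of their day 3 UMIs in cells outside the 3 lineages. COL3A1, a fibrillar collagen (chromosome 15, 93556914 to 93595678), went from 7275 UMIs on day 3 to 34 on day 7, a level of 1.12 against 0.00546 and 205-fold lower (146 to 296). On day 3, 86.4% of its UMIs lay in cells of none of the 3 lineages, and 196 such cells had at least 3 of them, against 1 such cell on day 7. LGALS1 (galectin 1) was 31.4-fold lower, with 284 such cells against 4. CXCL13, the chemokine that draws B cells into follicles, was 25.8-fold lower (1.15 against 0.0448), and 94.5% of its day 3 UMIs lay in cells outside the lineages, 33 of which had at least 3. CST3 (cystatin C) was 18.4-fold lower, and 261 cells outside the lineages had at least 3 of its UMIs on day 3. A further set of genes was carried by more cells. TAC3, which encodes the tachykinin neurokinin B, had a level of 2.66 on day 3 and 0.294 on day 7 (9.06-fold lower, 8.63 to 9.51), with 638 cells of at least 3 UMIs outside the lineages against 67. IL7R, the interleukin 7 receptor, had 1.09 and 0.178, with 576 such cells against 82. CTSW (cathepsin W) had 1.60 and 0.457, with 679 such cells against 128, and ID2, a transcriptional regulator needed by innate lymphocytes, 2.79 and 0.803. AGR2 and TFF3, secretory products of goblet cells, and FCN2, a ficolin, had 84.8, 84.1 and 74.1% of their day 3 UMIs in the epithelial lineage. Over all cells AGR2 had a level of 1.05 and 0.0141, TFF3 of 1.08 and 0.193 and FCN2 of 2.79 and 0.159. CSTB (cystatin B) had 4.76 and 1.94, and in the free RNA 4.53 and 2.05.

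Lists of cell type markers were also summed over all cells. The epithelial list (9 of 10 genes tested) had a summed level of 0.693 on day 3 and 2.70 on day 7, with 7 genes at least 2-fold higher and a median ratio of 3.78. The B list summed to 23.3 and 36.9 with 1 of 10 genes past 2-fold, the gate gene MS4A1. The T and NK list summed to 2.42 and 3.34, with 4 of 9 genes at least 2-fold higher and KLRB1, a lectin-like receptor of NK cells and innate-like lymphocytes, 5.46-fold lower (0.693 against 0.127). B lineage cells, which lack CD3E and CD3G by their gate, held 5579 of its 15780 UMIs on day 3 and 8994 of 20780 on day 7. All 8 stromal markers were at least 2-fold lower, and their sum was 3.59 on day 3 and 0.0826 on day 7. COL1A2 was 223-fold lower (144 to 365), POSTN, a matrix protein, 277-fold (140 to 642), PDGFRA, a platelet-derived growth factor receptor of fibroblasts, 128-fold (54.4 to 394) and ACTA2, smooth muscle actin, 9.35-fold (8.45 to 10.4). In the free RNA the stromal sum was 3.33 and 1.08, COL1A2 was 3.24-fold and COL3A1 6.05-fold lower, and DCN, a matrix proteoglycan that was 213-fold lower in cells (0.240 against 0.00112), was 3.48-fold higher (0.140 against 0.488). The 2 of 5 mast cell markers with enough UMIs were lower. KIT, which is also in the type 3 list below, had 0.298 and 0.0578 and made up most of the mast cell sums of 0.327 and 0.0651. Of 10 myeloid markers 4 were at least 2-fold lower, among them CSF1R, the macrophage growth factor receptor (0.0584 against 0.00964), and AIF1 (0.479 against 0.171), while C1QA and C1QB, complement subunits made by macrophages, had ratios of 1.17 and 1.50. Of 4 tested endothelial markers 3 were at least 2-fold lower, with sums of 0.265 and 0.169. The 3 erythroid markers were higher, HBB (beta globin) from 0.0570 to 3.41, and HBB in the free RNA was at 0.991 and 12.8. Outside the 3 lineages, 237 cells had at least 3 stromal UMIs on day 3 and 1 on day 7, 210 and 34 had at least 3 myeloid UMIs, and 69 and 377 at least 3 epithelial UMIs. Fewer cells of a type and less RNA per cell can be separated only as far as these cell counts go.

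**Figure D1:**
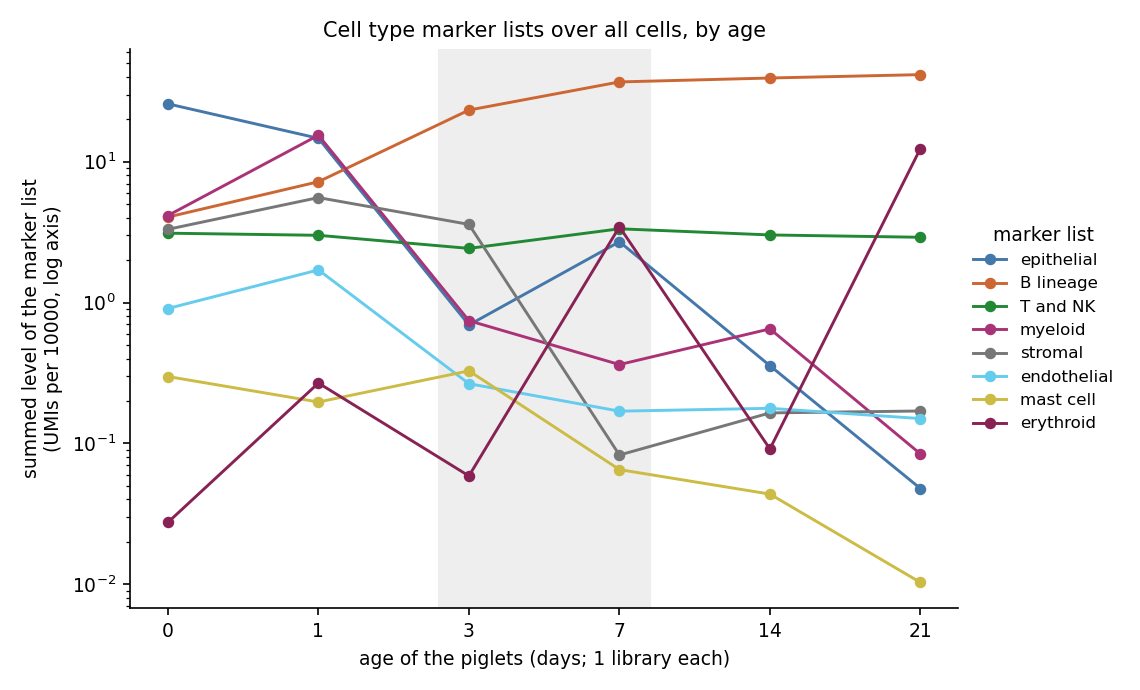
Summed level of 8 lists of cell type markers over all cells (vertical axis, UMIs per 10000, log axis) in the 6 libraries by age in days (horizontal axis, evenly spaced, 1 library each), with days 3 and 7 shaded. Between them the B list went from 23.3 to 36.9, the epithelial list from 0.693 to 2.70 and the stromal list from 3.59 to 0.0826.

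A list of 13 genes of type 3 immunity, the interleukin 17 and 22 programme of innate lymphocytes and T helper cells at mucosal surfaces, was lower on day 7 as well. Over all cells 7 of the 12 genes tested were at least 2-fold lower on day 7 and none higher, with a median ratio of 0.345. IL23R, the receptor that drives the programme, had a level of 0.139 on day 3 and 0.0145 on day 7 (9.60-fold lower, 7.72 to 12.1). IL22 had 0.338 and 0.123, IL17A 0.0739 and 0.00948, and RORA 0.283 and 0.0930. On day 3, 86.4% of IL22 UMIs lay in cells of none of the 3 lineages, where 154 cells had at least 3 of them, against 18 on day 7. IL2RA, the interleukin 2 receptor alpha chain, followed the same course over all cells (0.793 against 0.232), with 488 such cells against 61. Cells outside the lineages were less deeply read on day 7, with a median of 1898 UMIs against 3165, and the part of that depth in these cell counts was not tested.

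The epithelial lineage differed most between the days. Of 5597 genes tested, 1240 (22.2%) were at least 2-fold higher on day 7 and 447 (7.99%) at least 2-fold lower, with a median ratio of 1.161. Most tested genes of mature absorptive enterocytes were at least 2-fold higher on day 7, and most tested genes of goblet, crypt and enteroendocrine cells at least 2-fold lower. Epithelial cells were read to a median of 8213.5 UMIs on day 3 and 5155 on day 7, with mitochondrial shares of 10.7 and 12.1%. Of the keratins that the gate did not use, KRT20, found on the villus, had a level of 1.86 on day 3 and 10.8 on day 7, and KRT18 had 7.03 and 2.17. The gate held 69.7 and 65.5% of all KRT20 UMIs, but 79.0 and 24.9% of all KRT18 UMIs. Cells outside the 3 lineages held 8.24% of the KRT18 UMIs on day 3 and 44.0% on day 7. In epithelial cells B markers summed to 1.09 and 2.28, T and NK markers to 0.453 and 1.03, myeloid markers to 1.13 and 2.25 and stromal markers to 0.196 and 0.0391. The myeloid sum was mostly AIF1, with 64 of 92 UMIs on day 3 and 269 of 287 on day 7. The part of these markers in the differences below was not tested.

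Brush border enzymes, which finish the digestion of peptides and sugars on the enterocyte surface, were higher in all 10 genes tested of the 15 listed, with a median ratio of 26.7 and a summed level of 2.18 on day 3 and 50.9 on day 7. The epithelial lineage held 178 of the 1766 UMIs of the list over all cells on day 3 and 6509 of 8827 on day 7. Most of the 10 genes could therefore reach the minimum of 50 UMIs only through day 7. Over all cells the summed level was 5.23-fold higher. ANPEP (aminopeptidase N) had 0.624 and 17.5, a 28.1-fold difference (21.3 to 37.8), in 20 of 90 cells on day 3 and 119 of 192 on day 7. ENPEP (glutamyl aminopeptidase) had 0.697 and 8.27, and MEP1B, a meprin metalloprotease, 0.0122 and 9.18. SI, the sucrase-isomaltase that digests table sugar and starch products, had 3 UMIs on day 3 and 509 on day 7 (0.0367 and 3.98), in 2 and 63 cells. The peptidases MME and DPP4 and the maltase MGAM were 23.5-, 7.76- and 5.88-fold higher. LCT, the milk sugar enzyme lactase, had 2 UMIs on day 3 and 6 on day 7 and was not detectable as a difference at this depth. Thinned to 1000 UMIs per cell, 2 of 90 cells (2.22%, exact interval 0.270 to 7.80) held at least 3 UMIs of the list on day 3 and 82 of 192 (42.7%, 35.6 to 50.03) on day 7. The same enzymes had summed to 10.9 and 32.2 in epithelial cells of days 0 and 1 and reached 73.7 on day 14, so the day 3 value was the lowest before day 21, when 1 epithelial cell was left.

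Genes for lipid absorption were at least 2-fold higher in 13 of 14 tested, with a median ratio of 11.06 and a sum of 8.37 on day 3 and 111 on day 7. The epithelial lineage held 684 of the list's 8310 UMIs on day 3 and 14149 of 27032 on day 7. Over all cells the lipid sum was 3.40-fold higher. APOA1 had 3.74 and 54.6 (14.6-fold, 13.0 to 16.4), and APOB, the structural protein of chylomicrons, 0.122 and 5.09. MTTP, which loads lipid onto APOB, had no UMI on day 3 and 224 on day 7, at least 47.8-fold higher when the day 3 count is set to the 3 that a count of 0 allows. FABP2, an intestinal fatty acid carrier, had 1 UMI and 1665 (0.0122 and 13.0), and RBP2, the intracellular retinol carrier, 0.0612 and 10.4. FABP1 had 2.27 and 15.1, but 98.9% of its day 3 UMIs lay in 3 cells. Of 7 tested genes in the list of bile acid handling 5 were at least 2-fold higher and GUCA2A at least 2-fold lower. FABP6, the ileal bile acid binding protein (chromosome 16, 63297594 to 63303675), had 2.90 on day 3 in 13 cells and 108 on day 7 in 122 cells (37.2-fold, 32.7 to 42.4). SLC51A and SLC51B, which export bile acids to the blood, were 44.1- and 40.5-fold higher, NR1H4, the bile acid receptor FXR, 16.9-fold (8.45 to 39.8), and SLC10A2, the apical uptake transporter, had 1 UMI and 55. GUCA2A, which encodes guanylin, a regulator of fluid secretion and not a bile acid protein, had 54.9 and 12.1. It made up most of the list's summed level of 62.6 on day 3, against 132 for the list on day 7. FGF19, the hormone that bile acids induce in the ileum, had no UMI on either day.

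Endocytosis and lysosomal genes, by which enterocytes of suckling animals take up whole milk proteins, were at least 2-fold higher in 15 of 16 tested, with a median ratio of 7.36 and sums of 7.01 and 50.9. The epithelial lineage held 573 of the list's 40006 UMIs on day 3 and 6504 of 50416 on day 7. Over all cells the sum was 1.32-fold higher. CUBN, the endocytic receptor cubilin, had no UMI on day 3 and 142 on day 7 (at least 30.3-fold), and its partner AMN was 19.8-fold higher (10.9 to 40.1). DAB2, the adaptor that brings such receptors to clathrin, had 0.526 and 5.52. The lysosomal proteases LGMN and CTSH were 43.9- and 14.8-fold higher. PRDM1, a transcription factor of the suckling-type epithelium, had 0.122 and 0.579. All 10 tested transporters of the apical and basal membranes were higher, with sums of 1.37 and 13.9. SLC5A1, the sodium-glucose cotransporter, had 0.196 and 2.70, SLC6A19, which takes up neutral amino acids, 0.0734 and 1.85, and SLC15A1, the peptide transporter, 0 and 0.454 (at least 12.4-fold). In arginine and citrulline synthesis, 7 of 8 genes tested were at least 2-fold higher: ASS1 had 0.135 and 7.74, OAT 2.59 and 13.8 and CPS1 0.514 and 3.22. All 6 tested iron genes were higher, the ferritin chains FTH1 (24.3 and 54.0) and FTL (14.4 and 32.3) by just over 2-fold and the ferric reductase CYBRD1 and the exporter SLC40A1 by 10.8- and 10.4-fold. All 8 tested genes of fatty acid oxidation and ketogenesis had a ratio above 1 and 4 were at least 2-fold higher, among them ACADM (0.636 and 2.62).

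Named by the size of their ratio alone, 8 genes had no UMI in 90 cells on day 3 and at least 142 on day 7. Besides MTTP and CUBN these were TMIGD1, an adhesion protein of the brush border, at 7.74 on day 7 (at least 211-fold), MELTF, a melanotransferrin, at 3.00, XPNPEP2, an aminopeptidase, at 2.36, NPL at 1.46, SLC5A12, a lactate transporter, at 1.40 and CES3, a carboxylesterase, at 1.16. PRAP1 had 4 UMIs in 3 cells on day 3 and 6193 in 98 cells on day 7 (0.0489 and 48.4), and SCPEP1, a carboxypeptidase, 1 and 382. SPP1 had 13.9 and 31.1, with 73.8% of its day 3 UMIs in 3 cells.

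Goblet cell genes were lower in all 8 tested of 14 listed, with a median ratio of 0.00308 and sums of 192 on day 3 and 10.3 on day 7. MUC2, the gel-forming mucin of the gut (chromosome 2, 689363 to 719542), had 824 UMIs in 31 of 90 cells on day 3, a level of 10.1, and none in 192 cells on day 7, at least 429-fold lower. AGR2, which folds mucins in the endoplasmic reticulum (chromosome 9, 86042070 to 86053893), had 71.1 and 0.219 (325-fold, 224 to 489), in 39 and 10 cells. TFF3, a trefoil peptide of mucus, had 72.6 and 2.70, with 67.5% of the day 7 UMIs in 3 cells. SPDEF and ATOH1, transcription factors of the secretory lineage, had 89 and 53 UMIs on day 3 and 1 and 0 on day 7. FCGBP and CLCA1, secreted mucus proteins, had 208 and 650 UMIs and 1 each. RETNLB, a resistin-like peptide of goblet cells, had 36.6 in 26 cells and 0.0235 in 2 cells, and SELENOM was 43.9-fold lower. SPINK4, a protease inhibitor of goblet cells, had 25.8 and 7.30, in 40 and 64 cells. FCN2 had 164 and 6.25 and was found in 61 of 90 and 44 of 192 cells. At 1000 UMIs per cell, 33.3% of epithelial cells (23.7 to 44.1) held at least 3 goblet UMIs on day 3 and 9.38% (5.65 to 14.4) on day 7.

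Crypt genes were at least 2-fold lower in 7 of 10 tested, with a median ratio of 0.325. OLFM4, a crypt base marker, had 7.85 on day 3 and 0.853 on day 7 (9.21-fold, 7.51 to 11.4), in 34 and 7 cells, SMOC2 1.39 and 0.110, ASCL2, the stem cell transcription factor, 0.624 and 0.102 and SPINK1 12.2 and 3.01. LGR5, the stem cell receptor, had 12 UMIs and 1, and CFTR, the chloride channel, was higher (0.208 and 0.704). Genes of DNA replication were at least 2-fold lower in 8 of 9 tested (median ratio 0.324), with PCNA at 0.856 and 0.203 and MCM7 at 0.758 and 0.227, and genes of mitosis in 4 of 8 (0.517). Levels of replication genes in the free RNA were higher than in epithelial cells, 1.70 and 1.50 for PCNA. Genes that build ribosomes were at least 2-fold lower in 5 of 10 (0.497), among them NPM1 (7.42 and 3.59).

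Enteroendocrine genes were at least 2-fold lower in 10 of 15 tested and at least 2-fold higher in 3, with a median ratio of 0.186 but sums of 95.4 and 99.6. These 3 higher genes were the hormone genes PYY, GCG and NTS. CHGA (chromogranin A) had 24.6 on day 3 in 34 cells and 1.42 on day 7 in 18 cells (17.3-fold lower, 14.8 to 20.2), and CHGB 7.64 in 26 cells and 0.798 in 5. NEUROG3, the transcription factor that starts the endocrine fate, had 140 UMIs in 9 cells and none. NEUROD1, which follows it, had 1.64 and 0.305, PCSK1, a prohormone convertase, 2.08 and 0.297, and TPH1, which makes serotonin, 2.46 and 0.227. The hormone transcripts rested on a handful of cells. PYY had 1.47 in 4 cells on day 3 and 28.7 in 10 cells on day 7, GCG (glucagon-like peptides) 4.56 in 2 and 32.3 in 12, and NTS 0.122 in 3 and 24.8 in 12, with 95.6% of the GCG and 99.7% of the NTS UMIs of day 7 in 3 cells. With every cell weighted alike GCG was 1.73-fold higher. SST (somatostatin) had 43.4 and 7.78, but 993 of its 995 UMIs on day 7 lay in 1 cell, and GHRL (ghrelin) had 52 UMIs, 50 of them in 1 cell, and 2. Counted by cells instead of UMIs, 31 of 90 (34.4%, 24.7 to 45.2) held at least 3 endocrine UMIs at 1000 UMIs per cell on day 3. On day 7, 13 of 192 (6.77%, 3.65 to 11.3) did. These intervals cover counting error only, since the cells of an age come from 1 library.

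**Figure D2:**
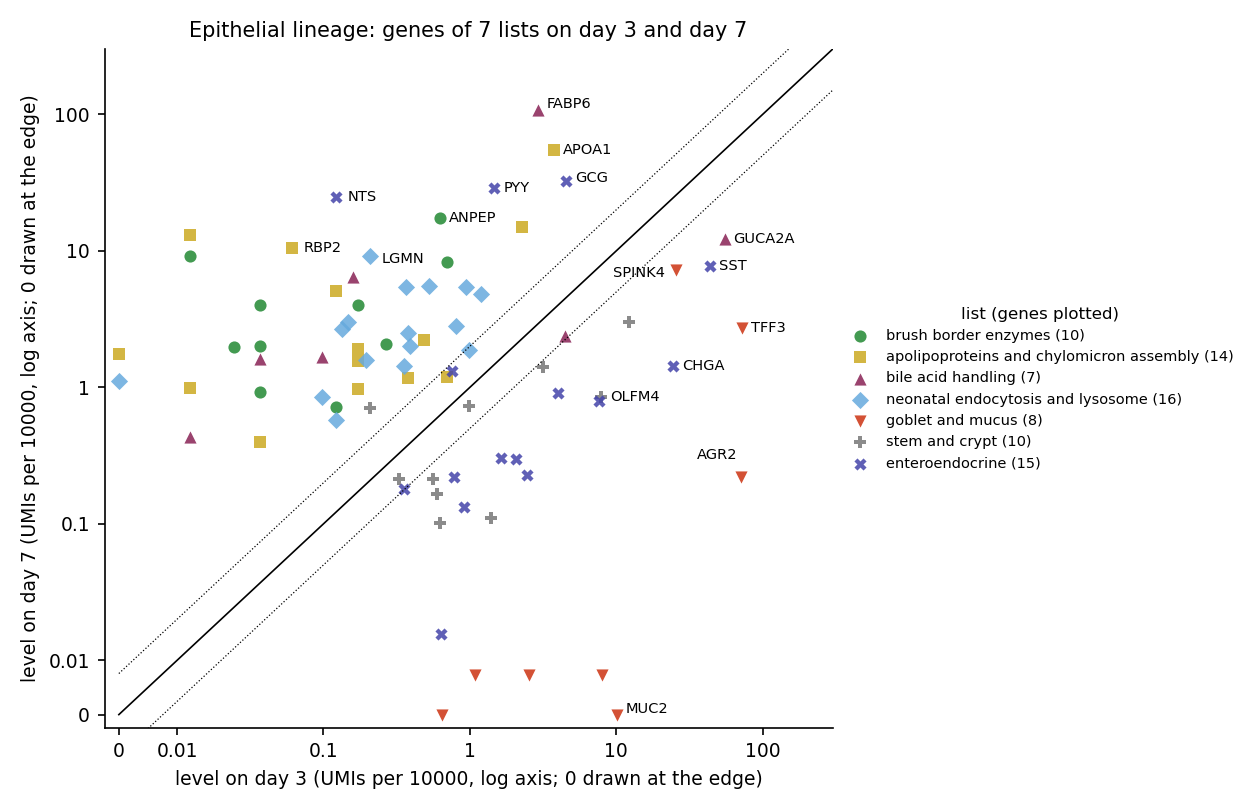
Level on day 3 (horizontal axis) and on day 7 (vertical axis) in epithelial cells, in UMIs per 10000 on log axes with levels of 0 drawn at the edge, for the genes of 7 lists with at least 50 UMIs over both days; the solid line is equality and the dotted lines 2-fold. All brush border, lipid and endocytosis genes plotted and 5 of 7 genes of the bile acid list lie above the line of equality. GUCA2A, the guanylin gene in that list, lies below it at 54.9 and 12.1, and so do all goblet genes plotted.

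Defence genes of the lining moved both ways, 3 at least 2-fold higher and 5 at least 2-fold lower of 9 tested. REG3G had 73 UMIs in 6 cells on day 3 and 16909 in 86 cells on day 7 (0.893 and 132, 148-fold, 118 to 189). Beside it on chromosome 3 (64792665 to 64795666) lies a protein-coding gene listed only as LOC100520832, chosen after its values were seen, with 0.367 and 69.8. Whether reads of these neighbours were shared cannot be told from the counts. DMBT1, a scavenger receptor that binds bacteria, was found in 5 cells on day 3 and 117 on day 7, and CCL25, the chemokine that draws lymphocytes to the small bowel, 0.281 and 9.94. REG4, a lectin of secretory cells, had 51.2 in 65 cells and 5.08 in 39, and SAA3, an acute phase protein, 6.46 and 0.219. PLA2G2A, a bactericidal phospholipase, had 500 UMIs in 9 cells on day 3 and none on day 7. The pancreatic lipase relative PNLIPRP2 was 32.0-fold lower. REG3G stood at 0.941, 31.4, 0.893, 132 and 303 in epithelial cells of days 0, 1, 3, 7 and 14.

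The epithelial gate lost most of its cells at a lower depth. Applied after thinning to 1000 UMIs it kept 20 cells on day 3 and 84 on day 7, and 9 named genes then lay on the other side of a ratio of 1: CLCA1, PNLIPRP2, SAA3, SPINK1, MKI67, SPP1, PYY, NTS and APOC2. FABP1, FTH1, FTL, SPINK4, PCNA and NPM1 no longer passed 2-fold there. MHC class II genes were at least 2-fold higher in 6 of 7 tested in epithelial cells, but their sums of 3.93 and 14.1 lay far below the 69.4 and 104 of the free RNA.

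In the T lineage, 462 of 7065 genes tested (6.54%) were at least 2-fold higher on day 7 and 209 (2.96%) at least 2-fold lower, with a median ratio of 1.097. Most tested genes of T cell regulation and most interferon-stimulated genes were at least 2-fold higher, a minority of cytotoxic genes were, and 6 of 10 genes of naive, recirculating T cells were at least 2-fold lower. The gate genes CD3E and CD3G had 6.70 and 5.24 on day 3 and 11.2 and 8.31 on day 7, and LCK, the kinase next to the receptor, which the gate did not use, had 2.17 and 3.87. Myeloid markers summed to 0.152 and 0.111 in these cells, stromal markers to 0.0892 and 0.0246, B markers to 0.787 and 1.47 and epithelial markers to 0.577 and 1.24, and their part in the differences was not tested. HBB had 9 UMIs on day 3 and 2126 on day 7, 97.5% of them in 3 cells.

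Of 13 tested genes of T cell regulation and checkpoints 10 were at least 2-fold higher and none at least 2-fold lower, with a median ratio of 4.29 and sums of 7.84 and 22.7. LAG3, an inhibitory receptor for MHC class II (chromosome 5, 63929669 to 63935054), had 0.231 on day 3 and 2.78 on day 7 (interval of the ratio 8.88 to 16.7), in 20 of 349 and 176 of 432 cells. PDCD1 (PD-1) had 0.220 and 2.32 (10.5-fold, 7.68 to 14.8), and TNFRSF18 (GITR) 0.603 and 5.73. CTLA4 had 2 UMIs and 66, TIGIT 0.105 and 0.450, TOX2 0.142 and 0.630 and TNFRSF4 (OX40) 1.41 and 3.95. IL10, the anti-inflammatory cytokine, had 3 UMIs in 3 cells and 261 in 68 cells (0.0157 and 1.07). Named by the size of their ratio alone, TNFRSF1B (the second TNF receptor), the protease LGMN and C1H15orf48 were 5.42-, 8.80- and 5.33-fold higher. FOXP3, the transcription factor of regulatory T cells, had 17 UMIs and 53 (0.0892 and 0.217, 2.43-fold, 1.39 to 4.48). TOX, IKZF2 and IL2RA had ratios of 1.01, 0.971 and 1.05. At 1000 UMIs per cell, 7.74% of T cells (5.16 to 11.06) held at least 3 UMIs of the list on day 3 and 34.3% (29.8 to 38.9) on day 7.

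Naive and recirculation genes were at least 2-fold lower in 6 of 10 and higher in none, with a median ratio of 0.403. LEF1, a transcription factor of naive T cells, had 1.66 and 0.405 (4.09-fold lower, 3.25 to 5.18), in 156 of 349 and 73 of 432 cells. CCR7, the receptor that brings T cells into lymph nodes, had 1.43 and 0.487, IL7R 2.31 and 0.671, SATB1 1.01 and 0.393 and S1PR1, needed to leave lymphoid tissue, 0.881 and 0.368. With gates applied at 1000 UMIs S1PR1 had a ratio of 0.551 and no longer passed 2-fold. TCF7 had 3.60 and 2.24, and KLF2, which drives S1PR1, had a ratio of 1.21. Outside the lists, RASA3, SCML4, ADD3, STK38, PDE3B, NOP53 and ARHGEF18 were 2.66- to 4.43-fold lower, and S100A4, a calcium-binding protein, had 5.63 and 2.10. At 1000 UMIs, 30.9% of T cells (26.1 to 36.1) held at least 3 UMIs of the naive list on day 3 and 13.7% (10.6 to 17.3) on day 7.

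Cytotoxic genes were at least 2-fold higher in 4 of 13 tested, the list median being 1.40. GZMB (granzyme B, chromosome 7, 74705499 to 74708781) had 4 UMIs in 3 cells on day 3 and 1157 in 40 cells on day 7 (0.0210 and 4.74), with 363 UMIs in 1 cell and 51.3% in 3. GZMA had 4 UMIs and 117, and GNLY none and 54, which lay in 5 cells. PRF1 (perforin) had 0.136 and 0.311. CCL5 had the largest level of the list on both days, 40.3 and 49.8, in 121 and 211 cells, NKG7 2.23 and 3.98 and CTSW 6.24 and 4.33. Of 12 tested genes of T cell identity, CD8A (0.577 and 1.21, 2.10-fold, 1.68 to 2.64), CD8B (0.121 and 0.332) and the costimulator ICOS (0.330 and 1.24, 3.75-fold, 2.85 to 5.01) were at least 2-fold higher. THEMIS, a regulator of T cell selection, was at least 2-fold lower (1.30 and 0.512), and CD4 had 0.551 and 0.639. Of 9 tested type 3 genes 3 were at least 2-fold higher and 1 at least 2-fold lower, with a median ratio of 1.87. IL17F, IL22 and IL26, cytokines of the programme, were 9.63-, 4.81- and 6.99-fold higher, from 10, 18 and 49 cells on day 7, against the lower IL22 over all cells, and 74.8, 62.6 and 27.4% of their day 7 UMIs lay in 3 cells each. KIT was lower (0.808 and 0.368), with a ratio of 0.572 when every cell was weighted alike, and IL17A had 0.194 and 0.102. Homing receptors were mixed: CXCR3, CXCR5 and CXCR6, receptors for inflamed tissue, follicles and mucosa, were 5.16-, 2.86- and 7.89-fold higher, CCR9, the receptor for CCL25, had 0.545 and 0.745 and ITGAE (CD103) 1.67 and 1.36. With free RNA subtracted, PRF1, CD8A, CD8B, TNFRSF4 and FOXP3 no longer passed 2-fold, at ratios of 1.11, 1.01, 1.46, 1.28 and 1.14. That subtraction was large, up to 81.7% of T cell UMIs on day 3 and 42.8% on day 7, since it took every epithelial marker UMI in T cells for free RNA.

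Interferon-stimulated genes were at least 2-fold higher in 14 of 22 tested in T cells and lower in none, with a median ratio of 3.03 and sums of 14.5 and 55.2. ISG15, a ubiquitin-like antiviral protein, had 2.01 and 13.2 (6.54-fold, 5.88 to 7.29), IFI6 5.16 and 22.4, MX1, a GTPase that blocks viruses, 0.808 and 4.09, IFIT1 0.262 and 1.19 and USP18 0.0734 and 0.516. ISG20, an interferon-induced exonuclease, had 0.121 and 2.28 (18.9-fold, 12.4 to 30.0). In the B lineage 10 of 27 tested were at least 2-fold higher (median 1.75), and in epithelial cells 11 of 16 (2.61). The shares of all genes compared that were at least 2-fold higher were 6.54% in T, 5.0% in B and 22.2% in epithelial cells. ISG15 had 1.99 and 3.71 in B cells and 1.94 and 4.71 in epithelial cells, and ISG12(A) 4.50 and 18.9 in epithelial cells. In the free RNA ISG15 had 2.15 and 4.47, above its level in B cells on both days and in T and epithelial cells on day 3. At 1000 UMIs, 18.1% of T cells (14.2 to 22.5) held at least 3 interferon-stimulated UMIs on day 3 and 55.6% (50.7 to 60.3) on day 7, and 13.7 and 21.6% of B cells. The difference between lineages was not tested.

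**Figure D3:**
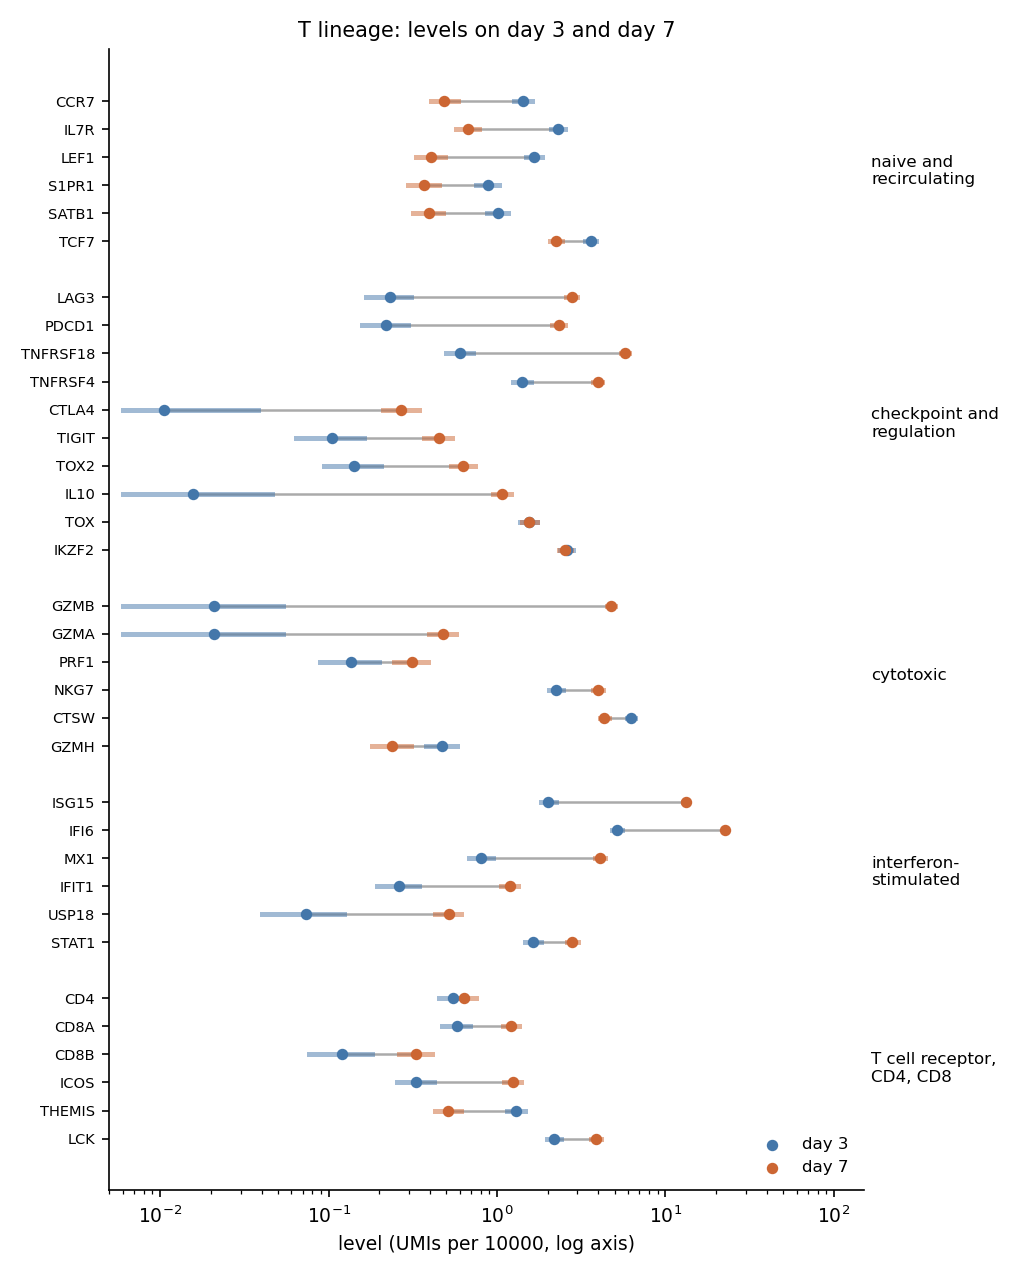
Level in T cells on day 3 (blue) and day 7 (orange) in UMIs per 10000 (horizontal log axis) for genes of 5 lists (rows), with exact Poisson 95% intervals as thick bars, which cover counting error only and are cut at the left edge. The naive genes plotted have lower levels on day 7 (LEF1 at 1.66 and 0.405), and LAG3, PDCD1, GZMB and ISG15 higher.

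In the B lineage, 607 of 12144 genes tested (5.0%) were at least 2-fold higher on day 7 and 706 (5.81%) at least 2-fold lower, with a median ratio of 1.063. Several germinal centre genes were higher, and no gene of resting B cells passed 2-fold. T and NK markers summed to 1.13 on day 3 and 1.70 on day 7 in these cells. Of the 5 tested, 1 was at least 2-fold higher and 2 at least 2-fold lower, with a median ratio of 0.559. Epithelial markers summed to 0.175 and 0.761, myeloid markers to 0.210 and 0.147 and stromal markers to 0.652 and 0.0875. Erythroid markers summed to 0.0528 and 3.22, with 27.8% of the day 7 UMIs of HBB in 3 cells. The part of all these markers was not tested.

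Germinal centre genes were at least 2-fold higher in 8 of 20 and lower in none, with a median ratio of 1.64 and sums of 9.70 and 18.2. GCSAM had 0.348 on day 3 and 1.55 on day 7 (4.47-fold, 4.24 to 4.71), against 0.234 and 0.948 in the free RNA, and MYBL1 0.728 and 1.89. S1PR2, which holds B cells in the centre, had 0.400 and 0.997, RGS13, which dampens chemokine signals, 0.126 and 0.506, MEF2B, a transcription factor upstream of BCL6, 0.566 and 1.23, NEIL1, a DNA glycosylase, 0.300 and 0.743 and LMO2 0.300 and 0.896. BCL6, the defining transcription factor, had 0.955 and 1.28 (1.34-fold, 1.29 to 1.39), BACH2 and EZH2 had ratios of 1.43 and 1.25, and the repair genes POLH and UNG 1.04 and 0.768. STAP1 had the lowest ratio of the list, with levels of 0.315 and 0.181. The share of B cells with a UMI of GCSAM at 1000 UMIs per cell was 1.84 and 12.6% and of MYBL1 3.77 and 14.2%, and 7.60% (7.02 to 8.20) and 27.6% (26.7 to 28.5) held at least 3 UMIs of the list. RRM2B, SIAH1, DAPP1 and GP91-PHOX, named by size, were 2.39- to 2.69-fold higher, and H3F3A, a histone, had 2.69 and 6.19.

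Dividing cells were part of the B lineage on both days. Mitosis genes had a median ratio of 1.20 with none of 20 past 2-fold (sums 15.3 and 19.8), and 11.5% (10.8 to 12.2) and 15.5% (14.8 to 16.2) of B cells held at least 3 of their UMIs at 1000 UMIs. TOP2A had 2.39 and 3.68 and MKI67 0.792 and 0.977. DNA replication genes had a median ratio of 0.962 with none past 2-fold, PCNA at 2.32 and 2.47.

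Plasma cell and secretion genes were at least 2-fold higher in 4 of 16, all 16 having a ratio above 1 and a median of 1.58. JCHAIN had 0.815 and 2.33 (2.85-fold, 2.75 to 2.96), with 1175 of its day 7 UMIs in 1 cell, and TXNDC5, which folds secreted proteins, 0.317 and 1.07. PRDM1, the plasma cell transcription factor, had 0.170 and 0.393 and SDF2L1 0.394 and 0.861, while XBP1 had 0.324 and 0.537, MZB1 4.17 and 5.61 and IRF4 0.432 and 0.532. With every cell weighted alike JCHAIN was 1.75-fold higher and no longer passed 2-fold, and with gates applied at 1000 UMIs JCHAIN and PRDM1 were both 1.93-fold higher. A protein-coding gene model on chromosome 14 (48800248 to 49001525) listed as LOC100152327, chosen after its values were seen, had 64.3 and 149, against 53.1 and 142 in the free RNA, and 12855 of its day 7 UMIs in the lineage lay in 1 cell.

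Of 14 genes of resting and recirculating B cells none passed 2-fold, with a median ratio of 0.957. CCR7 had 0.628 and 0.356, CXCR5, the follicle homing receptor for CXCL13, 0.688 and 0.457, FCER2 (CD23) 0.602 and 0.443 and KLF2 3.02 and 5.08. All 12 MHC class II genes had a ratio above 1 and none passed 2-fold (median 1.29, sums 92.9 and 123): CD74, the invariant chain, had 43.8 and 59.3 and SLA-DRB1 5.55 and 9.83. In the B receptor list none of 12 passed 2-fold (median 1.12). CD79B, a receptor subunit, had 8.69 and 12.6 and VPREB3 6.84 and 11.9.

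**Figure D4:**
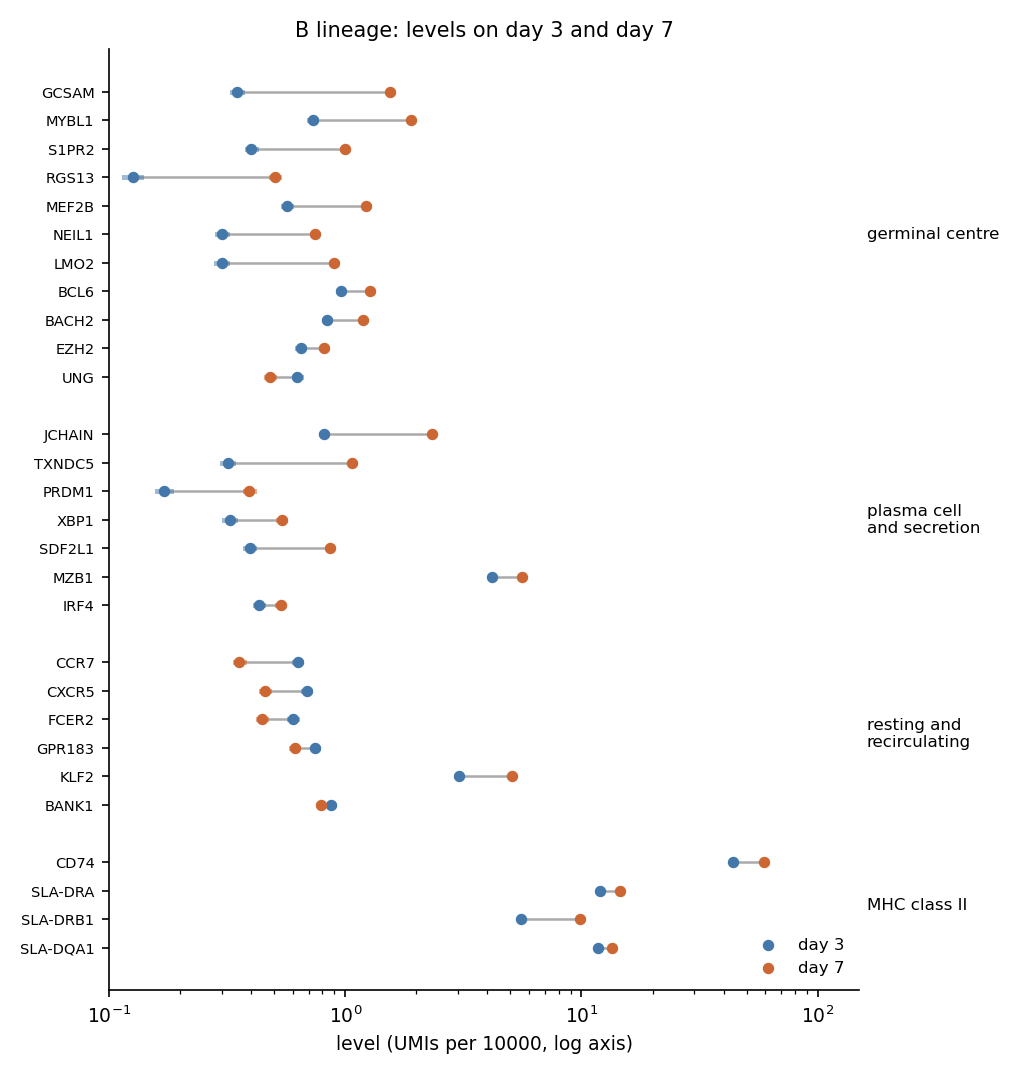
Level in B cells on day 3 (blue) and day 7 (orange) in UMIs per 10000 (horizontal log axis) for genes of 4 lists (rows), with exact Poisson 95% intervals as thick bars, mostly narrower than the points. GCSAM went from 0.348 to 1.55 and CCR7 from 0.628 to 0.356.

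Of the 12 genes with the smallest ratios named in B cells, ZFP36L2, ATP5E, RPS29 and RPL31 passed 2-fold. The 12 included LTB (lymphotoxin beta, which maintains follicles, 14.6 and 7.84), ZFP36L2, an RNA-binding protein that restrains division (1.71 and 0.649), ATP5E, a subunit of the mitochondrial ATP synthase (10.8 and 4.62), LDHB (1.37 and 0.750), DDX21 (3.22 and 1.69), AZIN1 (1.18 and 0.629) and MRPL52 (1.02 and 0.534). The free RNA had LTB at 13.9 and 7.49, ATP5E at 10.2 and 5.16 and ZFP36L2 at 1.25 and 0.425. DDX21, AZIN1, MRPL52 and LDHB had ratios of 0.432, 0.437, 0.547 and 0.779 there. The other 5 were the ribosomal proteins RPS29, RPL31, RPL37, RPS19 and RPL36. RPS29 had 51.2 and 23.2 in B cells (2.20-fold lower, 2.19 to 2.22), 69.5 and 25.9 in T cells, 35.2 and 18.5 in epithelial cells and 39.0 and 20.2 in the free RNA. RPS28 had a ratio of 0.407 in B cells and 0.374 in the free RNA. Over 75 ribosomal protein genes, listed after these values were seen, the median ratio was 0.862 in all cells, 0.843 in B, 0.753 in T and 0.644 in epithelial cells. In these groups 3, 3, 5 and 10 of the 75 were at least 2-fold lower and none at least 2-fold higher. The shares of all genes compared that were at least 2-fold lower were 12.1, 5.81, 2.96 and 7.99%. RPLP0 had a ratio of 1.20 in B cells. Of the 13 protein genes of the mitochondrial genome 3 were at least 2-fold lower in B, 3 in T and 5 in epithelial cells and none at least 2-fold higher. The shares of lower genes over all genes were 5.81, 2.96 and 7.99%. The 13 had median ratios of 0.763, 0.814 and 0.578, and 3 in B and 1 in T had ratios above 1. Among the lower ones ND3 had 23.2 and 7.93 in B, 21.7 and 7.28 in T and 55.5 and 11.8 in epithelial cells, and 40.8 and 21.3 in the free RNA, where ATP6 and ND4 were 1.53- and 1.54-fold higher. The part of library preparation in these differences was not tested.

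Some stress and activation genes passed 2-fold in B or T cells. DNAJB1, a heat shock cochaperone, had 4.26 and 9.75 in B cells and 2.73 and 9.15 in T cells, and 4.46 and 7.23 in the free RNA. HSPA6, an inducible chaperone, had 1.43 and 3.60 in B cells, while HSPA8 had 14.6 and 11.6 and HSPD1 4.96 and 3.08. Heat shock genes were at least 2-fold higher in 2 of 13 in B, 3 of 12 in T and 1 of 12 in epithelial cells, with median ratios of 0.910, 1.47 and 1.15. Over all genes compared, 5.0% were at least 2-fold higher in B, 6.54% in T and 22.2% in epithelial cells. JUN, an immediate early transcription factor that also responds to tissue dissociation, had 6.47 and 13.5 in B cells and 5.32 and 15.7 in T cells but 16.3 and 8.85 in the free RNA, and FOS 2.50 and 5.09 in B cells and 1.41 and 4.17 in T cells. Of immediate early genes 2 of 17 in B and 7 of 16 in T cells were at least 2-fold higher, and EGR1 had ratios of 1.17 and 0.714. NFKBIA, an inhibitor that NF-kB induces, had 0.420 and 2.01 in T cells against 5.53 and 1.57 in the free RNA, and TNFAIP3 0.530 and 1.19. With gates applied at 1000 UMIs JUN and FOS had ratios of 1.82 and 1.77 in B cells and TNFAIP3 of 1.72 in T cells, so none of the 3 passed 2-fold there. The part of dissociation in these values was not tested.

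**Figure D5:**
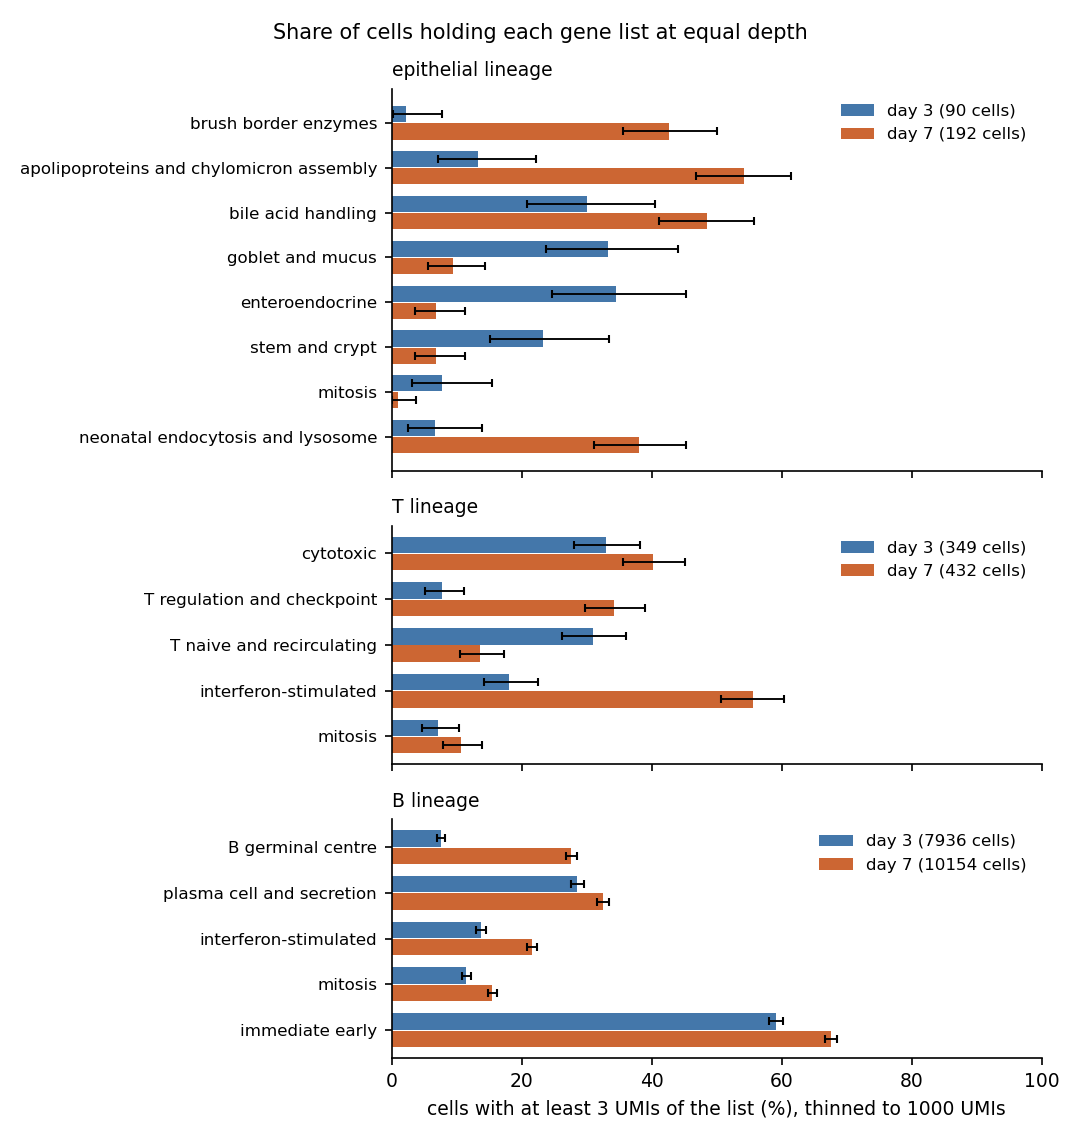
Share of cells in each lineage with at least 3 UMIs of a gene list after every cell was thinned to 1000 UMIs (horizontal axis, percent), on day 3 (blue) and day 7 (orange), with exact binomial 95% intervals that cover counting error only. In epithelial cells brush border UMIs went from 2.22 to 42.7% of cells and goblet UMIs from 33.3 to 9.38%, in T cells checkpoint UMIs from 7.74 to 34.3%, and in B cells germinal centre UMIs from 7.60 to 27.6%. The bile acid list includes the guanylin gene GUCA2A.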

How the data were processed

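Single cells from the ileal mucosa of piglets were captured in droplets, 1 library per age. The deposited values are UMI counts per gene and barcode, made by the authors with Cell Ranger 3.1.0 and its aligner STAR on the Sscrofa11.1 genome, unfiltered and not normalized. The tissue is ileum in the labels and the paper, while the series' design text speaks of cecum. The kit's chemistry differs between the sources and was not settled, and whether the piglets of an age were pooled is not stated in so many words. Groups were taken from the age in the labels.

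Counts were summed over the cells of each lineage and divided by their total, and the ratio of day 7 over day 3 was given an exact conditional binomial interval, levels an exact Poisson interval and shares a Clopper-Pearson interval, each at 95% and covering counting error only. Genes with at least 50 UMIs over both libraries were compared, and 2-fold was the size named. No test and no p-value was computed, since each age has 1 library. Doublets were kept, and leaving out the cells with the highest Scrublet scores was an alternative. Genes were named in each group of cells as the 12 largest and 12 smallest ratios with a level of at least 1 on the higher day, above the level in free RNA that day, leaving out genes without a symbol and gate genes. A few listed or named genes are not reported here. Further genes were named from 39 lists, of whose genes 15 were not among the symbols used here. The lineages, the lists and the comparisons were chosen with earlier results of these data known. Shares of cells with UMIs of a list were read after thinning each cell to 1000 UMIs. All 20648 gene symbols matched the reference table used for positions, which is of the same assembly. The ratios and intervals were tested on simulated data. The work used Python 3.11.15, numpy 2.4.6, scipy 1.17.1, pandas 2.3.3, scanpy 1.11.5 and, for TMM factors, edgeR 4.0.16 in R 4.3.3. A set of 13 alternatives was planned and 2 were added after the data were seen.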

Additional observations from a re-analysis of the deposited data

Results flagged for a closer look

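All genes compared in more than 1 lineage, without gate genes and genes that lack a symbol, were searched for 2-fold differences in opposite directions. In both lineages the level on the higher day had to be at least 1 and above free RNA, and the interval had to exclude 1. A pair of genes met these conditions. ADD3, an adducin of the membrane skeleton, was 2.04 times its day 3 level in epithelial cells (0.526 and 1.07 per 10000) and 0.275 times in T cells (1.40 and 0.385). IGFBP2, an insulin-like growth factor binding protein, was 2.49 times its day 3 level in T cells (0.692 and 1.72) and 0.189 times in epithelial cells (1.82 and 0.344). The differences between lineages were not tested, since each age has 1 library. With free RNA subtracted, IGFBP2 in T cells was 1.21 times its day 3 level, and with every cell weighted alike ADD3 in epithelial cells was 1.72 times, so neither passed 2-fold there.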

How the results depend on the processing

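No paired analysis was possible because each age has 1 library. Of 4697 values that 392 gene ratios took under the alternatives, 3832 moved by less than counting error or not at all, 856 moved by more, and 9 turned to the other side of 1 although called. A minimum of 200 UMIs and no minimum cannot change a ratio. Each of these settings put 392 unchanged values among the 3832, which say nothing on how firm the ratios are. In all, 63 values lay on the other side of 1 from the reported ratio. The 9 were epithelial ratios with gates applied at 1000 UMIs, from 20 and 84 cells: CLCA1 1.67, PNLIPRP2 1.39, SAA3 1.53, SPINK1 12.7, MKI67 1.76, APOC2 0.0556, PYY 0.334, NTS 0.834 and SPP1 0.480. The same gates gave 493 higher and 167 lower genes of 2378 compared in epithelial cells, against 1240 and 447 of 5597 in the main setting. In B cells they gave 374 lower of 10796, against 706 of 12144. Differences in share were 19.6 points for B and 1.09 for T cells. With the barcodes of most UMIs, up to the number the study profiled and with at least 200 genes (10619 and 14879 kept), the B difference was 0.731 points and the T difference -0.227. Stricter gates gave 13.4 points for B and 0.314 for epithelial cells, and a B gate without POU2AF1 13.8. A minimum of 200 UMIs left 484 higher and 804 lower genes of 11327 compared in all cells, against 786 and 1633 of 13531 in the main setting. In B cells it left 288 and 272 of 10120, and in T cells 147 and 53 of 2958. In epithelial cells it left 375 and 127 of 1478. With no minimum the counts were 1219 and 2650 of 16296 in all cells and 1176 and 1884 of 15658 in B cells. In T cells they were 1074 and 1113 of 11623, and in epithelial cells 2184 and 2098 of 12161. With free RNA subtracted, 423 of 11012 genes were lower in B cells. In T cells 1357 were higher and 805 lower of 5033, against 462 and 209 of 7065 in the main setting. The cause of changes beyond the number of genes or cells compared was not tested. Scaling by TMM moved the B lineage by 0.07 on the log2 scale, and JUN and FOS there to 1.99- and 1.95-fold. Epithelial values rest on 90 and 192 cells, and T values on 349 and 432, which limits genes found in few of them.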
